A study of Mus musculus with 48 samples.

Results

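The chemokine receptors described here are 9 genes, Ccr1, Ccr2, Ccr3, Ccr4, Ccr8, Cxcr3, Cxcr4, Cxcr5 and Cx3cr1. They are 9 of the 34932 genes with an estimate in the deposited files, and all 9 were followed in all 48 libraries. RNA sequencing was done on sorted immune cells from mice carrying subcutaneous B16F10 tumors, a transplanted melanoma of C57BL/6 mice. The question was how deletion of Yap1, the transcriptional coactivator YAP of the Hippo pathway, from T cells changes the cells inside the tumor and in the lymph node that drains it.

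There were 12 groups of 4 libraries each. Every group was of strain C57BL/6J and every mouse carried a tumor, so there was no tumor-free group. The control genotype is labelled WT, and these were littermates of the deleted mice. The other genotype is labelled CD4Cre Yap flox and is called Yap-cKO here, and its Cre is driven by the Cd4 promoter. That promoter is already active when developing thymocytes carry both CD4 and CD8, so both T cell lineages lose the gene before they leave the thymus. Mice of 6 to 10 weeks were used in the study. From each genotype, CD4+ T cells, CD8+ T cells and the remaining CD45+ immune cells, without CD4 and CD8 (CD45), were sorted from the tumor (tumor-infiltrating lymphocytes, TILs, a name the labels also give to the CD45 sort) and from the tumor-draining inguinal lymph node (TDLNs). The labels number the libraries 1 to 4 within a group but do not say that each came from a separate mouse, so every p-value measures the spread between these libraries.

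Chemokine receptors are seven-pass membrane proteins that signal through inhibitory G proteins and steer cells toward the source of a chemokine. In a tumor, the receptors on a cell help to decide whether it arrives and where it settles, and a population sorted in bulk therefore carries the receptors of every subset it holds. Ccr2 brings inflammatory monocytes out of the bone marrow, Ccr1 and Cx3cr1 are also widely used by myeloid cells, and Ccr4 and Ccr8 mark regulatory and type 2 helper T cells. Cxcr3 is the receptor of type 1 helper and effector CD8+ T cells, Cxcr4 binds Cxcl12 and holds cells in marrow and lymphoid tissue, and Cxcr5 directs B cells and follicular helper T cells to B cell follicles.

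Of the 9 genes, 7 lie on mouse chromosome 9 (GRCm38). Ccr1 (chr9:123962124-123968692, minus strand), Ccr3 (chr9:124021972-124031689, plus strand) and Ccr2 (chr9:124101950-124113557, plus strand) are neighbors, and Cx3cr1 (chr9:119901616-120069879, minus strand) lies beside Ccr8 (chr9:120092114-120094906, plus strand). Ccr4 (chr9:114490316-114504916, minus strand) and Cxcr5 (chr9:44511787-44561877, minus strand) are farther away. Cxcr4 is on chromosome 1 (chr1:128588199-128592293, minus strand) and Cxcr3 on X (chrX:101731535-101734269, minus strand). Exons of Cxcr5 overlap those of Bcl9l, and those of Cx3cr1 overlap Gm33858, so part of their reads could be assigned to either gene. Between 0 and 4.02% of the 31-base words of each gene also occur in other genes, most in Ccr2.

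Promoter windows of 250 bases before to 50 bases after the RefSeq start site (GRCm38.p6) were found for 8 of the 9 genes, all but Cxcr5. The 3 printed belong to the receptors whose difference between genotypes passed the test in a T cell population, Ccr2 (chr9:124101933-124102232, plus strand), Ccr4 (chr9:114496495-114496794, minus strand) and Ccr8 (chr9:120091883-120092182, plus strand). They are written 5′ to 3′, with capitals for a match on either strand to any of 3 motifs, the TEAD core GGAATG, the AP-1 motif TGANTCA and the NFAT core GGAAAA.
Ccr2: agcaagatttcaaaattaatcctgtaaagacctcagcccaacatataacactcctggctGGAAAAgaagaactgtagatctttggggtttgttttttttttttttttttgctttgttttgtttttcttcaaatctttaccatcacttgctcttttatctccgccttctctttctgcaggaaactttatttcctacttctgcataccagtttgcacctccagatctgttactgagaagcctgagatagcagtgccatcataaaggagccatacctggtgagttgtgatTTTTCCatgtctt
Ccr4: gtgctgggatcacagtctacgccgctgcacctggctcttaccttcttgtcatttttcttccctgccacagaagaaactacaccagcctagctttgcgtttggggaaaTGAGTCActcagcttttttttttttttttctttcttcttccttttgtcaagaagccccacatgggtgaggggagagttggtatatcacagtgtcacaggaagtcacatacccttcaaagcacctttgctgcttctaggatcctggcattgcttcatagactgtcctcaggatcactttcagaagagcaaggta
Ccr8: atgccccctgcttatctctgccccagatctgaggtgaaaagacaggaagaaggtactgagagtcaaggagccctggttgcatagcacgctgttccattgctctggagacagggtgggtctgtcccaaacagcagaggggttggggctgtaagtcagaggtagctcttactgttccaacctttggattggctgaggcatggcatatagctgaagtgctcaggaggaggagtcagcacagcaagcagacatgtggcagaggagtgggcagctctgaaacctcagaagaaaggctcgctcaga
TEAD proteins are the DNA-binding partners of YAP. Their core motif was in 0 of the 8 windows, against 14.7% of 32851 mouse promoter windows of the same length. The Ccr4 window held 1 AP-1 match, a motif found in 7.81% of all windows, and the Ccr2 window held 2 NFAT matches, a motif found in 23.4% of them. The Ccr8 window held none of the 3. A match or its absence describes these letters in this window and nothing about binding.

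Between 12656510 and 24213892 counts per library were assigned to genes (median 17870231), and 3 counts corresponded to 0.124 to 0.237 CPM (counts scaled to the size of the library), the floor below which a level was not read. Yap1 was lower in Yap-cKO CD4 TILs (3.11 ± 1.72 against 20.6 ± 5.26 CPM in WT, SD, n = 4, edgeR adjusted p = 0.00974) and CD8 TILs (4.26 ± 1.64 against 20.4 ± 6.59 CPM, adjusted p = 0.0180). In the CD45 TILs, which the Cre does not target, Yap1 was at 1.83 CPM in Yap-cKO and 4.14 CPM in WT, also without overlap (edgeR adjusted p = 0.0773), with melanoma markers at 331.5 and 1513 CPM. In TDLNs the group means were 1.68 to 2.32 CPM in both genotypes and did not show the deletion. Summed melanoma markers were also lower in Yap-cKO T cell TILs (CD4, 1043 ± 901 against 11020 ± 5358 CPM, and CD8, 1038 ± 1072 against 10040 ± 4349 CPM), while 15 T cell markers were higher (CD4, 7814 ± 1966 against 4286 ± 1974 CPM, and CD8, 6284 ± 527 against 3400 ± 1745 CPM), and their part in the Yap1 difference was not tested. Group means of Cd3e were 2.00 to 9.72 CPM in the CD45 sort, against 440 to 1301 CPM in the T cell sorts. Ddx3y and Eif2s3y, both Y-linked, were above 5 CPM in 18 libraries, which were WT replicates 1 to 3 of every population, so genotype and the presence of these genes differ together.

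Levels of different receptors can be compared only per transcript length, as TPM (transcript abundance scaled to length and library size), and on that scale the leading receptors differed between T cells and the CD45 sort and between tumor and node. Cxcr3 and Ccr8 made up most of the signal in CD4 TILs, with mean levels of 208 and 140 TPM in WT and 378 and 448 TPM in Yap-cKO. Cxcr3 led in CD8 TILs (112 TPM in WT and 237 TPM in Yap-cKO), and Ccr2 (285 and 390 TPM) and Ccr1 (179 and 204 TPM) led in CD45 TILs. In the lymph node, Cxcr4 was first in both T cell populations, at 162 and 184 TPM in CD4+ cells and 194 and 207 TPM in CD8+ cells. Cxcr5 (576 and 561 TPM) and Cxcr4 (421 and 515 TPM) led in the CD45 sort of the node. The leading receptor held between 39.6% and 70.5% of the summed TPM of the 9 genes. That sum was 453.5 TPM in WT and 1106 TPM in Yap-cKO CD4 TILs, and 195 and 446 TPM in CD8 TILs.

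**Figure D1:**
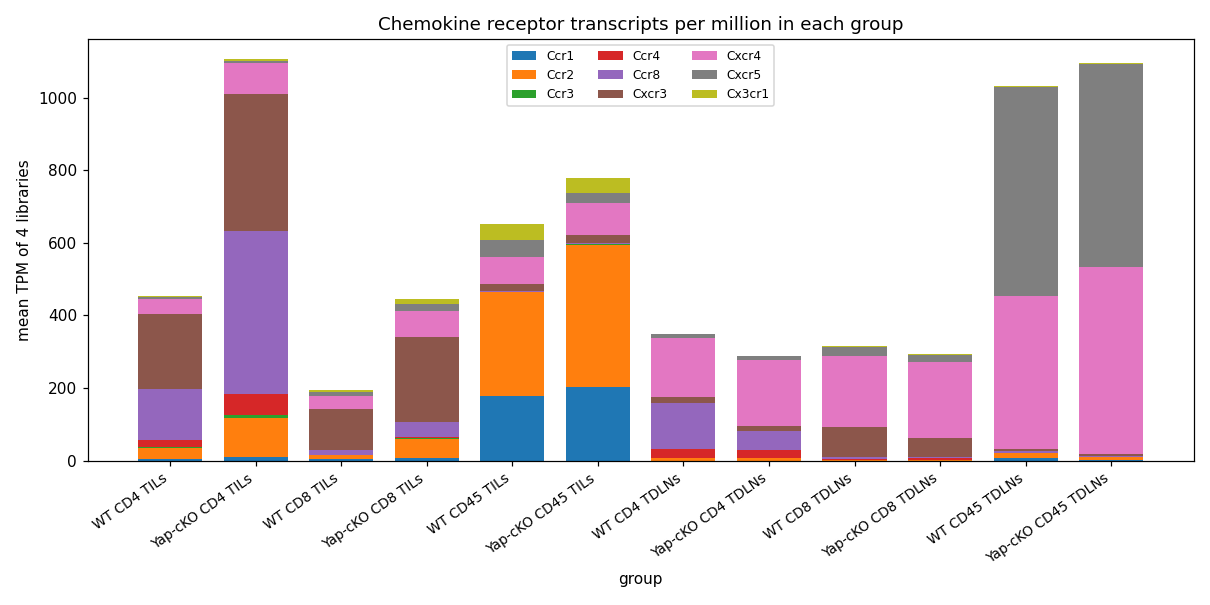
Mean TPM of each receptor in each of the 12 groups (n = 4 libraries per group). Cxcr3 and Ccr8 fill most of the CD4 TIL bars, Ccr2 and Ccr1 the CD45 TIL bars, and Cxcr5 and Cxcr4 the CD45 TDLN bars.

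The myeloid receptors Ccr1 and Ccr2 separated CD45 TILs from everything else. Ccr1, a receptor for Ccl3, Ccl5 and Ccl7, was at 535, 308, 442 and 644 CPM in the 4 WT CD45 TIL libraries and at 356, 705, 435 and 600 CPM in the Yap-cKO ones. Ccr2, the receptor for Ccl2, Ccl7 and Ccl12, was at 862, 822, 853 and 998 CPM in WT and at 704, 1537, 1196 and 1151 CPM in Yap-cKO CD45 TILs. For both genes, every CD45 TIL library was above every library of the other 10 groups. Cx3cr1, the receptor for fractalkine (Cx3cl1) on monocytes, macrophages and some effector CD8+ T cells, was also highest there, at 113 to 157 CPM in WT and 48.1 to 168 CPM in Yap-cKO, but the lowest of these libraries was under the highest Yap-cKO CD8 TIL library (56.7 CPM).

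T cell TILs carried much less of these receptors, and lymph node T cells very little. In WT CD8 TILs, Ccr1 was at 8.52, 3.20, 8.81 and 7.91 CPM, while in WT CD8 TDLNs it was at or under 3 counts in every library. That placed WT CD8 TILs at least 39.1-fold higher, taking 3 counts per library as the level of the node. Cx3cr1 was at 5.30, 10.2, 14.4 and 16.2 CPM in WT CD8 TILs and at 0.31 to 1.74 CPM across all T cell TDLN libraries. Ccr2 was at 31.2, 59.3, 66.1 and 103 CPM in WT CD4 TILs, against 10.9, 10.4, 13.6 and 30.8 CPM in WT CD4 TDLNs. The lowest TIL library was only just above the highest node library.

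The helper and regulatory T cell receptors Ccr4 and Ccr8 were highest in CD4+ cells, whereas Ccr3 was highest in Yap-cKO CD4 TILs but also present in CD45 TILs. Ccr8, the receptor for Ccl1 and a surface mark of regulatory T cells in tumors, was at 64.1, 65.2, 180 and 95.9 CPM in WT CD4 TILs and at 121, 59.4, 118 and 60.7 CPM in WT CD4 TDLNs. Those WT groups overlapped in CPM, but per 1000 CPM of T cell markers they did not, with 25.7 CPM (14.5 to 39.5) in TILs and 8.42 CPM (4.26 to 11.1) in TDLNs. Ccr4, the receptor for Ccl17 and Ccl22 on type 2 helper, regulatory and skin-homing T cells, was at 8.14, 31.4, 30.2 and 34.3 CPM in WT CD4 TILs and at 28.3, 31.2, 36.0 and 41.2 CPM in WT CD4 TDLNs, which also overlapped. Ccr4 was at or under 3 counts in every WT CD45 TIL library, so WT CD4 TILs were at least 146-fold higher. Ccr3, the eotaxin receptor of eosinophils and of some type 2 helper T cells, was low throughout, with a highest group mean of 16.2 CPM in Yap-cKO CD4 TILs. Yap-cKO CD45 TILs came next at 8.03 CPM (2.96 to 18.5). WT CD4 TILs were at 4.11 CPM (1.05 to 5.92) and WT CD45 TILs at 3.40 CPM (1.59 to 5.14), with overlap. Ccr3 was at 0 in all 4 WT CD8 TDLN libraries. The summed eosinophil markers reached at most 2.35 CPM in any T cell TIL library.

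Cxcr3, which binds Cxcl9 and Cxcl10, was at 81.0, 266, 308 and 270.0 CPM in WT CD4 TILs and at 74.6, 96.0, 192 and 140 CPM in WT CD8 TILs. In the node its order was the other way round, with 94.3, 140, 110 and 83.0 CPM in WT CD8 TDLNs and 13.9, 32.2, 14.6 and 21.6 CPM in WT CD4 TDLNs. In CPM the WT CD8 groups of the 2 tissues overlapped, whereas the WT CD4 groups did not. Per 1000 CPM of T cell markers, however, Cxcr3 was at 38.9 CPM (32.0 to 44.95) in WT CD8 TILs and at 10.6 CPM (9.97 to 11.7) in WT CD8 TDLNs, without overlap.

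The lymphoid receptors had the reverse order of tissues. Cxcr4 was at 441, 354, 456 and 509 CPM in WT CD45 TDLNs, 170, 267, 205 and 176 CPM in WT CD8 TDLNs and 124, 192, 143 and 159 CPM in WT CD4 TDLNs. In WT TILs it was at 78.2 to 110 CPM in the CD45 sort, 16.4 to 63.1 CPM in CD8+ cells and 15.2 to 66.5 CPM in CD4+ cells, below the matching node population in every library. Cxcr5 was at 1120, 928, 952 and 875 CPM in WT CD45 TDLNs, and its next group was WT CD45 TILs with 119, 120, 60.5 and 90.3 CPM. Both lymphoid receptors were higher in every CD45 TDLN library than in any library of another sort or tissue.

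With the 12 groups ordered by mean CPM, few neighbors separated. Of 11 neighboring pairs per gene, those whose libraries did not overlap numbered 2 for Ccr1 and Ccr8, 1 for Ccr2, Ccr4, Cxcr4, Cxcr5 and Cx3cr1, and 0 for Ccr3 and Cxcr3. For Ccr8 and Ccr4 the first group, Yap-cKO CD4 TILs, stood clear of the next.

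**Figure D2:**
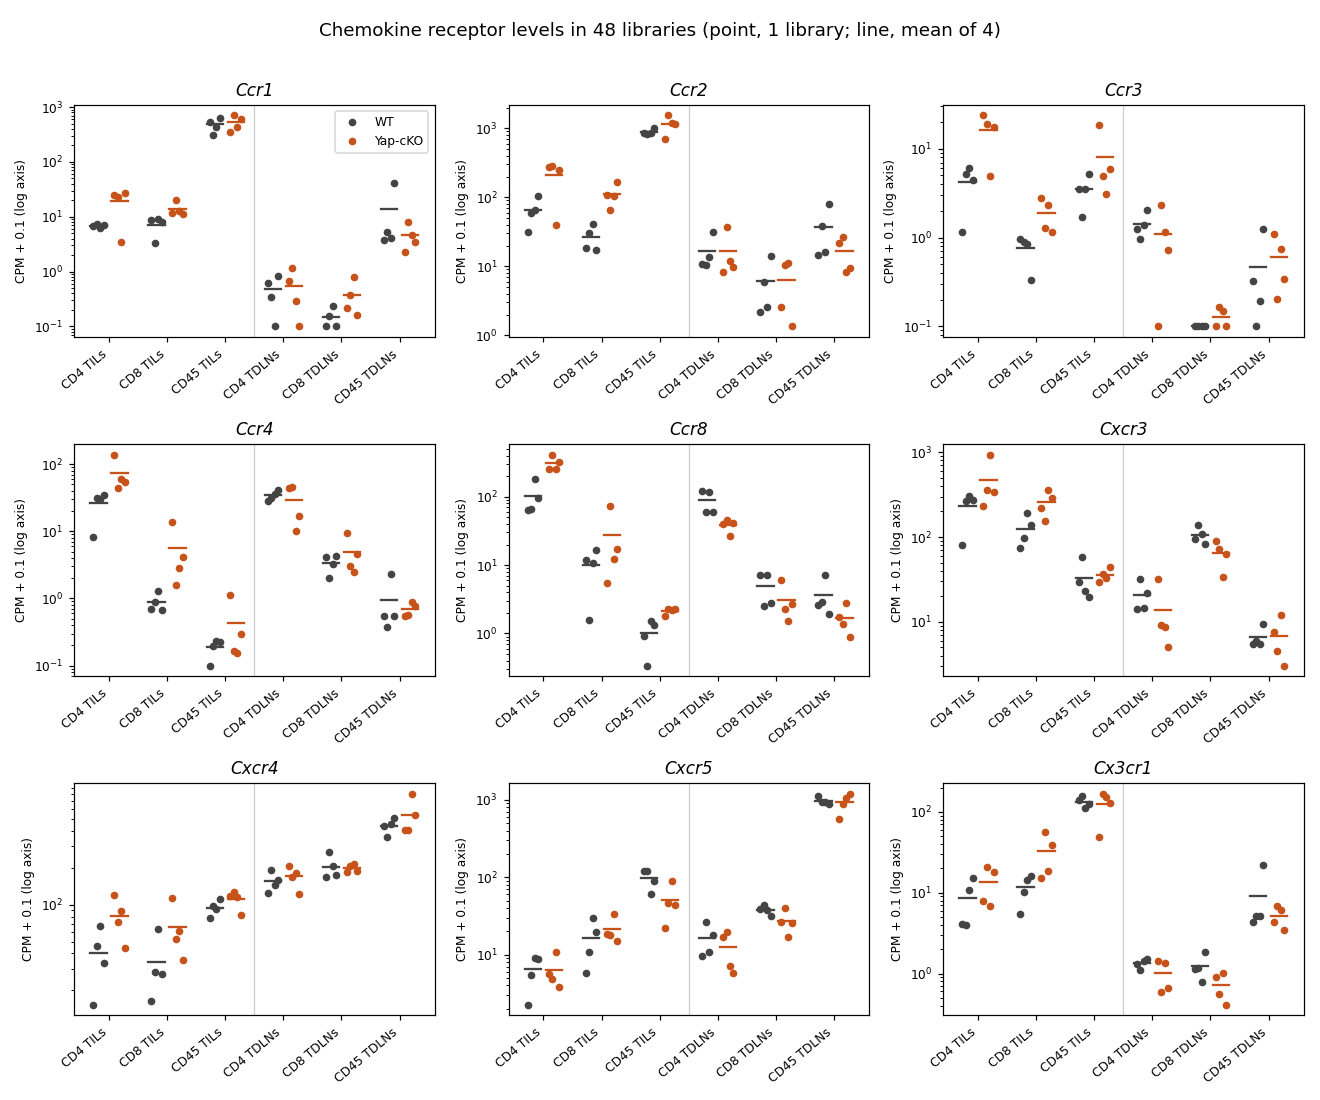
Level of each receptor in CPM (log axis) in each of the 48 libraries, by group, 1 point per library. Ccr1 and Ccr2 are highest in all 8 CD45 TIL libraries, Cxcr4 and Cxcr5 in all 8 CD45 TDLN libraries, and Ccr8 in the 4 Yap-cKO CD4 TIL libraries.

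The tissue comparison asked which receptors differ between tumor and node within a sort. Differences are log2 fold changes with their standard error from edgeR's quasi-likelihood test over all genes, averaged over both genotypes, and a difference was called when its Benjamini-Hochberg adjusted p was under 0.05 and its absolute log2 fold change above 1. In CD4+ cells 6 of 9 receptors were higher in TILs and 2 were lower, where 33.9% of all genes tested were called (23.3% higher and 10.6% lower). Ccr1 (4.84 ± 0.618, adjusted p = 6.55e-06), Cxcr3 (4.37 ± 0.454, 8.02e-07) and Cx3cr1 (3.38 ± 0.39, 2.37e-06) rose most, followed by Ccr2 (2.90 ± 0.437), Ccr3 (2.90 ± 0.538) and Ccr8 (1.66 ± 0.256). Ccr1 was at 0 to 13 counts in WT and 0 to 19 counts in Yap-cKO CD4 TDLN libraries, so its fold change is a fitted value near the floor. Cxcr4 (−1.44 ± 0.263, 0.000218) and Cxcr5 (−1.10 ± 0.369, 0.0196) were lower. The median over the 9 was 2.90, and over all genes 0.05. In WT libraries alone the Ccr8 difference was 0.18 (edgeR adjusted p = 0.715). Cxcr5 fell short of the fold threshold, at −0.93 to −0.95, without WT CD4 TDLNs replicate 2, Yap-cKO CD4 TDLNs replicate 2 or WT CD4 TILs replicate 1. Scaled on 15 T cell markers, which moved the median of all genes to 0.96, Cxcr4 (−0.70, 0.0136) and Cxcr5 (−0.39, 0.318) were no longer called and Ccr4, at 0.54 (0.201) otherwise, was called higher (1.30, 0.00346), and in Yap-cKO libraries alone Cxcr4 was at −1.05 (0.0523) and Cxcr5 at −1.01 (0.179).

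In CD8+ cells the same 6 receptors were higher in TILs and only Cxcr4 was called lower, against 32.1% of all genes called (21.3% higher, 10.8% lower). Ccr1 (6.35 ± 0.533, edgeR adjusted p = 1.48e-07) and Cx3cr1 (4.54 ± 0.376, 1.34e-07) differed most, then Ccr2 (3.19 ± 0.473, 3.46e-05), Ccr8 (2.15 ± 0.552, 0.00363) and Cxcr3 (1.15 ± 0.243, 0.000817). Ccr3 was at or under 3 counts in all 8 CD8 TDLN libraries, so its rise is a lower bound of 6.88-fold. Ccr1 was at or under 3 counts in every WT CD8 TDLN library and at 1 to 14 counts in the Yap-cKO ones. Its fold change is therefore a fitted value near the floor. Cxcr4 was lower by 2.07 ± 0.259 on the log2 scale. In WT libraries alone neither Ccr8 (1.08, adjusted p = 0.205) nor Cxcr3 (0.27, 0.526) passed, while Ccr4 (−2.01, 0.00462) and Cxcr5 (−1.18, 0.0425) did, and without Yap-cKO CD8 TILs replicate 3 Cxcr3 missed the fold threshold at 0.98. Ccr4, at −0.90 (0.0890) with all libraries, was called at −1.45 (0.00385) without Yap-cKO CD8 TILs replicate 1, which held 13.8 CPM against 1.46 to 4.03 CPM in the other Yap-cKO CD8 TIL libraries. Scaled on T cell markers, which moved the median of all genes to 1.13, Cxcr4 was still called lower (−1.07), while Ccr4 (0.19) and Cxcr5 (0.23), neither of them called with all libraries, changed sign.

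In the CD45 sort 5 receptors were higher in TILs and 3 lower, against 43.5% of all genes called (23.8% higher, 19.7% lower). Ccr1 (5.98 ± 0.552, edgeR adjusted p = 8.41e-08), Ccr2 (5.33 ± 0.4, 9.41e-09), Cx3cr1 (4.23 ± 0.378, 5.86e-08), Ccr3 (3.60 ± 0.617, 7.19e-05) and Cxcr3 (2.35 ± 0.29, 2.14e-06) rose. Cxcr5 (−3.78 ± 0.271, 5.87e-09), Cxcr4 (−2.28 ± 0.166, 6.85e-09) and Ccr4 (−2.03 ± 0.627, 0.00888) were lower. Ccr4 was at 0 to 16 counts in CD45 TIL libraries and Ccr3 at 0 to 20 counts in CD45 TDLN libraries. Both fold changes are therefore fitted values near the floor. Ccr8, at −0.82, was called only in WT libraries alone (−1.99, 0.0149) and without WT CD45 TILs replicate 3 (−1.02, 0.0269). In bulk RNA a smaller number of cells of a type and less RNA in each of them cannot be told apart, here and in every comparison that follows.

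The lineage comparison set CD4+ against CD8+ T cells over both genotypes. In TILs Ccr4 (4.41 ± 0.471, edgeR adjusted p = 3.21e-05), Ccr8 (3.42 ± 0.532, 0.000946) and Ccr3 (2.91 ± 0.416, 0.00046) were higher in CD4+ cells and Cxcr5 (−1.55 ± 0.372, 0.0249) was lower, 4 of 9 receptors where 3.34% of all genes were called (2.01% higher, 1.33% lower). In WT libraries alone only Ccr4 passed, with 3.28 (0.119) for Ccr8 and 2.59 (0.229) for Ccr3. Cxcr5 lost its call, at −1.40 to −1.52, without Yap-cKO CD8 TILs replicate 3, WT CD8 TILs replicate 4, WT CD4 TILs replicate 2 or Yap-cKO CD4 TILs replicate 1, 2 or 4, and Ccr2 (1.11, 0.115) was called at 1.31 (0.00937) without Yap-cKO CD4 TILs replicate 3. Cxcr3 was at 0.89 (0.216).

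In TDLNs 5 of 9 receptors were called between the lineages, against 6.06% of all genes (3.5% higher, 2.55% lower). Ccr8 (3.92 ± 0.346, edgeR adjusted p = 8.19e-07) and Ccr4 (2.97 ± 0.354, 2.33e-05) were higher in CD4+ cells, as was Ccr3, by at least 6.42-fold over the 3-count floor. Cxcr3 (−2.32 ± 0.343, 0.000207) and Cxcr5 (−1.20 ± 0.285, 0.0112) were lower. In Yap-cKO libraries alone Ccr4 and Ccr8 passed while Cxcr3 was at −2.25 (0.0619) and Cxcr5 at −1.15 (0.285), and Ccr2 (1.39, 0.111) was called at 1.79 (0.0251) without WT CD8 TDLNs replicate 4. Cxcr5 was not called in WT libraries alone either.

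Against the mean of the T cell sorts, the CD45 sort of the tumor had 5 receptors higher and 3 lower, with 35.2% of all genes called (16.9% higher, 18.3% lower). Ccr1 (5.61 ± 0.264), Ccr2 (3.70 ± 0.266), Cx3cr1 (3.21 ± 0.295), Cxcr5 (2.75 ± 0.288) and Cxcr4 (1.02 ± 0.24) were higher, with edgeR adjusted p of 2.04e-14 to 0.000968. Ccr4 (−5.73 ± 0.574), Ccr8 (−5.27 ± 0.522) and Cxcr3 (−2.80 ± 0.317) were lower, with adjusted p of 1.08e-08, 8.66e-09 and 7.85e-08. Ccr4 was at 0 to 2 counts in WT and 1 to 16 counts in Yap-cKO CD45 TIL libraries, so its value is a fitted one near the floor. Ccr3, at 0.85 (0.0431), fell short of the fold threshold. Cxcr4 sat at the fold threshold: it was 0.58 (0.14) in Yap-cKO libraries alone and 0.947 to 0.988 in 12 of the 24 fits that left out a library. In TDLNs Cxcr5 (5.49 ± 0.228, 1.60e-15), Ccr1 (5.11 ± 0.577, 7.40e-08), Cx3cr1 (2.83 ± 0.286, 1.24e-08), Cxcr4 (1.43 ± 0.131, 2.06e-09) and Ccr2 (1.29 ± 0.419, 0.0143) were higher in the CD45 sort and Ccr4 (−3.97 ± 0.41), Ccr8 (−2.64 ± 0.33) and Cxcr3 (−2.50 ± 0.325) lower, against 27.4% of all genes called (14.8% higher, 12.6% lower). Ccr1 was at 0 to 19 counts in the T cell TDLN libraries, so its value here is a fitted one near the floor. WT CD45 TDLNs replicate 4 held the most Ccr1, Ccr2 and Cx3cr1 of its group and 3774 CPM of monocyte and macrophage markers against 237 to 1070 CPM in the other 3. Without it Ccr2 was at 0.94 (0.0757), and in Yap-cKO libraries alone Ccr2 was at 0.69 (0.411). Ccr3, at 1.67 (0.0749), was called at 1.86 (0.0473) without Yap-cKO CD4 TDLNs replicate 2 and at 1.88 (0.0344) without WT CD45 TDLNs replicate 2.

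**Figure D3:**
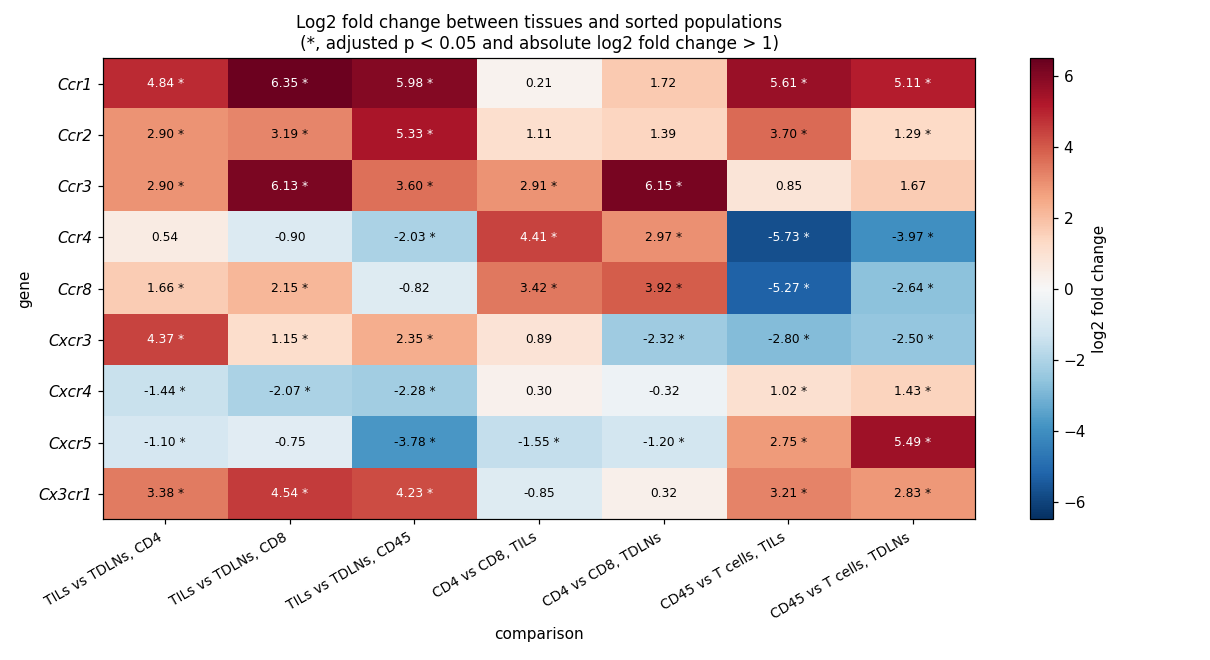
Log2 fold change of each receptor for tumor over node within each sort, CD4+ over CD8+ cells and the CD45 sort over T cells (color scale, edgeR fit over both genotypes). Ccr1, Ccr2 and Cx3cr1 are higher and Cxcr4 lower in TILs of every sort, and the Ccr3 values against CD8 TDLNs are fitted values over libraries at or under 3 counts, for which the text gives lower bounds. Values of Ccr1 against T cell TDLNs, Ccr3 against CD45 TDLNs and Ccr4 in CD45 TILs are also fitted near the floor.

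The genotype comparison in CD4 TILs asked whether T cells without YAP carried other receptors in the tumor. Ccr8 rose in Yap-cKO CD4 TILs. It was at 253, 413, 250 and 325 CPM in the 4 Yap-cKO libraries and at 64.1, 65.2, 180 and 95.9 CPM in the WT ones. Every Yap-cKO library was above every WT library. The log2 fold change was 1.73 ± 0.394 (edgeR adjusted p = 0.0238), and Ccr8 was the 1 receptor called of 9, against 8.02% of all genes called and 1.36% called higher.

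The other T helper and myeloid receptors had fold changes of like size and a wider spread. Ccr2 was at 271, 284, 40.2 and 252 CPM in Yap-cKO and at 31.2 to 103 CPM in WT (1.79 ± 0.564, edgeR adjusted p = 0.0791). Ccr3 was at 23.6, 18.8, 4.80 and 17.6 CPM against 1.05 to 5.92 CPM (2.07 ± 0.588, 0.0552), and Ccr1 at 25.3, 22.6, 3.36 and 26.7 CPM against 6.13 to 7.22 CPM (1.64 ± 0.525, 0.0834). In all of these, Yap-cKO replicate 3 lay within or below the WT range and the other 3 above it. Ccr4 was at 139, 44.4, 60.6 and 55.0 CPM against 8.14 to 34.3 CPM in WT, with no overlap (1.61 ± 0.496, 0.0740). Ccr4 and Ccr8 were the 2 receptors whose groups did not overlap, where 4.34% of all genes had every Yap-cKO library above every WT library.

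Cxcr3 (1.14 ± 0.53, edgeR adjusted p = 0.214), Cxcr4 (1.12 ± 0.449, 0.155), Cx3cr1 (0.76 ± 0.559, 0.414) and Cxcr5 (0.06 ± 0.522, 0.956) did not pass. Yap-cKO replicate 3, the lowest for Ccr1, Ccr2 and Ccr3, was the highest for Cxcr3, at 938 CPM against 231 to 354 CPM in the other 3, and had the highest T cell marker sum, 10720 CPM. All 9 fold changes were positive, though 7 of 9 after scaling on the T cell markers, and their median was 1.61, against 0.14 over all genes tested, or 0.47 against −1.16 with that scaling.

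The calls in CD4 TILs depended on the fit. Without Yap-cKO CD4 TILs replicate 3, Ccr1 (1.96, edgeR adjusted p = 0.000808), Ccr2 (2.11, 0.00332), Ccr3 (2.35, 0.00706), Ccr4 (1.66, 0.0372) and Ccr8 were called. The Ccr8 call was lost, with fold changes of 1.5 to 1.72, without WT CD4 TILs replicate 1 (adjusted p = 0.0830), 2 (0.0960) or 4 (0.0641) or Yap-cKO CD4 TILs replicate 2 (0.0698) or 4 (0.0675). Scaled on the 15 T cell markers, which moved the median of all genes to −1.16, Ccr8 was at 0.72 (0.265), and with the Y-linked genes as a covariate it was at 1.99 (0.377). Over all genes, the 1139 calls became 332 without WT CD4 TILs replicate 2 and 3236 without Yap-cKO CD4 TILs replicate 3, and the scaling left 17 called higher in place of 193.

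The regulatory T cell markers Foxp3, Il2ra, Ikzf2, Ctla4 and Tnfrsf18 moved with Ccr8. Their sum was 2720 ± 447 CPM in Yap-cKO and 968 ± 347 CPM in WT CD4 TILs, with no overlap, and Foxp3 itself was at 483 and 175 CPM. For each 1000 CPM of these markers there were 116 ± 32.0 CPM of Ccr8 in Yap-cKO and 105 ± 31.1 CPM in WT, a difference smaller than the spread between libraries. This ratio was computed after the values were seen. In the CD4 TDLNs Ccr8 was at 39.8, 45.4, 26.4 and 40.8 CPM in Yap-cKO and at 121, 59.4, 118 and 60.7 CPM in WT, again without overlap but with Yap-cKO below WT. The marker sum was 700 ± 193 CPM there against 941 ± 63.3 CPM in WT, and the ratio was 55.5 ± 9.09 against 96.2 ± 38.8 CPM of Ccr8 per 1000 CPM. Other T cell markers were higher in Yap-cKO CD4 TILs too, without overlap. Follicular helper T cell markers were at 769.5 CPM against 327 CPM in WT, and CD4 lineage markers at 849 against 410 CPM. Taken singly, Il2ra and Ikzf2 overlapped between the genotypes in CD4 TILs.

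**Figure D4:**
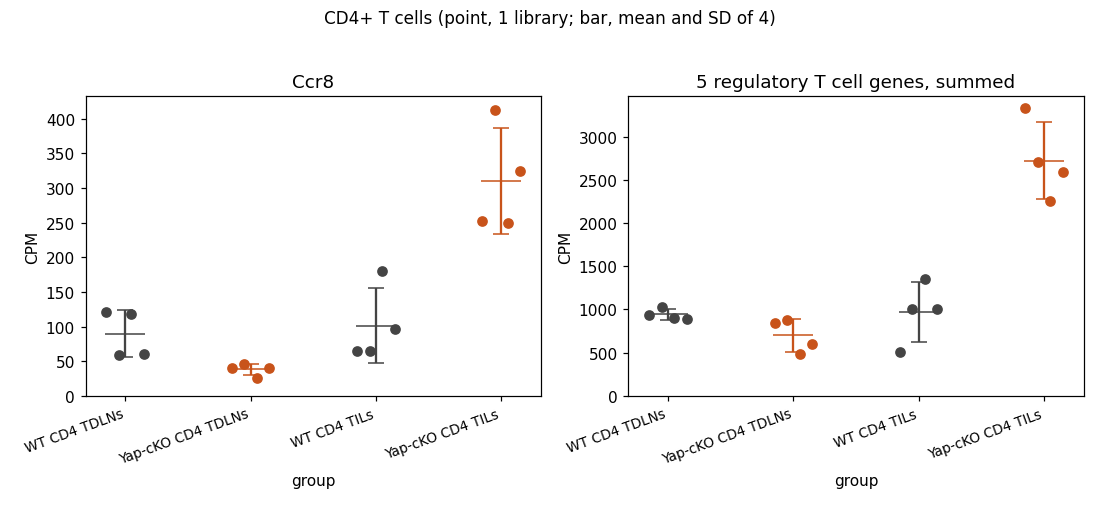
Ccr8 level in CPM and the summed level of 5 regulatory T cell markers in CPM in each of the 16 CD4+ libraries, by genotype and tissue. The 4 Yap-cKO TIL libraries are above the rest for both, and the Yap-cKO TDLN libraries hold the lowest Ccr8 levels.

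The Ccr8 difference in CD4 TDLNs did not pass the test on its own (−1.25 ± 0.301, edgeR unadjusted p = 0.00163, adjusted p = 0.816). It was the 1 receptor there with groups that did not overlap, where 0.531% of all genes had every Yap-cKO library below every WT library. The difference between the tissues did pass: the genotype effect on Ccr8 was greater in TILs than in TDLNs by 2.97 ± 0.509 on the log2 scale (adjusted p = 0.0129), the 1 receptor called of 9, against 1.36% of all genes called and 0.205% called in that direction. Ccr8 was called here without any 1 of the 16 libraries and under each of the 5 alternatives run, with 1.77 (edgeR adjusted p = 0.0474) after scaling on T cell markers. The Y-linked covariate was not run for this interaction.

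In CD8 TILs Ccr2 and Ccr4 rose in Yap-cKO. Ccr2 was at 107, 65.6, 104 and 165 CPM in Yap-cKO and at 18.1, 30.4, 40.8 and 17.3 CPM in WT, and Ccr4 at 13.8, 1.46, 2.79 and 4.03 CPM against 0.604, 0.80, 1.19 and 0.577 CPM. Neither pair of groups overlapped. The log2 fold changes were 2.10 ± 0.373 for Ccr2 (edgeR adjusted p = 0.0180) and 2.79 ± 0.695 for Ccr4 (0.0303), 2 of 9 receptors, against 12.2% of all genes called and 3.03% called higher.

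Ccr1 (11.6, 20.3, 12.8 and 10.96 CPM against 3.20 to 8.81 CPM in WT) and Ccr3 (2.72, 1.19, 2.24 and 1.06 CPM against 0.231 to 0.872 CPM) also had groups that did not overlap. Together with Ccr2 and Ccr4 these were 4 receptors, where 7.06% of all genes had every Yap-cKO library above every WT library. Ccr1 (1.00 ± 0.387, edgeR adjusted p = 0.103), Ccr3 (1.45 ± 0.534, 0.0888), Cx3cr1 (1.54 ± 0.486, 0.0597) and Cxcr3 (1.06 ± 0.35, 0.0684) did not pass. Nor did Ccr8 (1.47 ± 0.838, 0.237), Cxcr4 (0.98 ± 0.44, 0.147) or Cxcr5 (0.39 ± 0.467, 0.578). Leaving out 1 library took Ccr8 to between 0.25 and 1.82. Yap-cKO replicate 2 held 74.1 CPM of Ccr8, against 5.43 to 17.1 CPM in the other Yap-cKO libraries. All 9 fold changes were positive, though 7 of 9 after scaling on the T cell markers, with a median of 1.45 against 0.08 over all genes, or 0.14 against −1.12 with that scaling.

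The CD8 TIL calls moved with single libraries as well. Ccr2 lost its call without Yap-cKO CD8 TILs replicate 2 (2.29, edgeR adjusted p = 0.0545). Ccr4 lost its call without WT CD8 TILs replicate 1 (2.72, 0.0858), 2 (2.77, 0.0750) or 4 (2.66, 0.0844) and without Yap-cKO CD8 TILs replicate 1 (1.85, 0.0630), 2 (3.11, 0.0545) or 4 (2.89, 0.0549). Cxcr3 (1.38, 0.0258) and Cxcr4 (1.52, 0.0294) were called without WT CD8 TILs replicate 3, and Cx3cr1 without Yap-cKO CD8 TILs replicate 1 (1.79, 0.0495) or 3 (1.75, 0.0405). After scaling on T cell markers, which moved the median of all genes to −1.12, Ccr2 was at 0.98 (0.10) and Ccr4 at 1.66 (0.081), and with the Y-linked covariate they were at 2.72 (0.122) and 3.22 (0.157). Over all genes, the 1719 calls became 1 without Yap-cKO CD8 TILs replicate 2 and 2582 without WT CD8 TILs replicate 3, and the scaling left 6 called higher in place of 428.

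Monocyte and macrophage transcripts moved with these receptors in CD8 TILs. Leaving out Ly6c2, which memory CD8+ T cells also express, the 8 markers summed to 1233 ± 615 CPM in Yap-cKO (627 to 1814) and 431 ± 158 CPM in WT (258 to 601), and 8 of 8 were higher in Yap-cKO, with Lyz2 at 740 and 299 CPM and Csf1r at 45.6 and 18.5 CPM. For each 1000 CPM of these markers there were 16.6 CPM of Ccr1 in WT and 12.9 CPM in Yap-cKO, 30.1 and 29.3 CPM of Cx3cr1, and 67.6 and 119 CPM of Ccr2. Each of these ratios overlapped between genotypes, with Ccr2 at 34.6 to 118 CPM in WT and 38.4 to 212 CPM in Yap-cKO. In CD45 TILs the same ratios were 17.9 and 23.4 CPM for Ccr1, 5.08 and 5.56 CPM for Cx3cr1 and 33.2 and 51.8 CPM for Ccr2. There the Ccr2 ratio did not overlap (26.7 to 40.4 CPM in WT and 41.5 to 64.5 CPM in Yap-cKO), while those of Ccr1 and Cx3cr1 did. All ratios to these markers were computed after the values were seen. The part of myeloid RNA in the CD8 TIL differences was not tested. In CD4 TILs the sums of the same 8 markers overlapped between genotypes (219.9 CPM in Yap-cKO and 455 CPM in WT), and Ccr2 per 1000 CPM of them was at 1854 ± 1243 CPM in Yap-cKO (74.6 to 2793) and 195 ± 165 CPM in WT (49.7 to 421), which overlapped too. NK cell markers were at 138 ± 28.3 CPM in Yap-cKO and 58.3 ± 32.9 CPM in WT CD8 TILs, and dendritic cell markers at 47.4 ± 13.4 CPM and 23.8 ± 8.46 CPM in CD4 TILs, both without overlap.

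The genotype effects in CD4 and CD8 TILs were not shown to differ from each other. The interaction of genotype with T cell type gave 0 of 9 receptors called by edgeR, 0 at an unadjusted p under 0.05 and 0 by DESeq2, and 0% of all genes were called by edgeR, with 45 genes called by DESeq2. The interaction of genotype with tissue in CD8+ cells also gave 0 of 9, with 4 at an unadjusted p under 0.05, against 0.422% of all genes. DESeq2 called 2 there, Cxcr3 (1.69, adjusted p = 0.0251) and Cx3cr1 (2.28, 0.0337), which edgeR placed at 1.76 (0.0984) and 2.34 (0.116), and without WT CD8 TILs replicate 3 edgeR called Cxcr3 (2.04, 0.0364).

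The CD45 sort, whose cells the Cre does not target, gave 0 of 8 receptors tested between genotypes in TILs by edgeR and 0 by DESeq2, with 2 and 3 at an unadjusted p under 0.05, against 0.991% of all genes called. Ccr8 was low, at 1.71, 2.17, 2.13 and 2.17 CPM in Yap-cKO and 0.805, 0.240, 1.41 and 1.22 CPM in WT, and did not overlap (1.14, edgeR adjusted p = 0.249, with 4.46% of all genes not overlapping in that direction). Cxcr5 was at 21.9, 45.8, 89.5 and 43.9 CPM in Yap-cKO and 119, 120, 60.5 and 90.3 CPM in WT, with overlap (−0.98, 0.222). The summed B cell markers were 477 ± 240 and 1219 ± 357 CPM in those groups and did not overlap. Per 1000 CPM of these markers, Cxcr5 was at 104 CPM (94.2 to 114) in Yap-cKO and 80.0 CPM (72.8 to 89.9) in WT, also without overlap. That ratio, too, was computed after the values were seen. The interaction with tissue in this sort gave 0 of 9 by edgeR and by DESeq2, with 2 and 3 at an unadjusted p under 0.05, and 0% of all genes by edgeR, with 119 genes by DESeq2.

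In the node no receptor was called between genotypes in any sort. In CD4 TDLNs 0 of 8 tested passed by edgeR or DESeq2, with Ccr8 the 1 at an unadjusted p under 0.05 by edgeR and 0.0462% of all genes called. In CD8 TDLNs it was 0 of 7 by either tool, with Cxcr3 (−0.72, edgeR unadjusted p = 0.0298) the 1 below that level and 0.0158% of all genes called. In CD45 TDLNs it was 0 of 7 by either tool, with Ccr8 (−1.13, edgeR unadjusted p = 0.0486) the 1 below that level, 2 by DESeq2, and 0.0596% of all genes called. Cxcr3 was at 89.1, 73.0, 33.3 and 63.3 CPM in Yap-cKO CD8 TDLNs and 94.3, 140, 110 and 83.0 CPM in WT, so the groups overlapped.

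The rest of the chemokine system, taken from lists of 13 other receptors, 17 ligands of the 9 receptors and 20 signaling genes, was counted in the same fits. Between tumor and node, ligands were called higher in TILs for 14 of 14 tested in CD4+ cells, 14 of 15 in CD8+ cells and 15 of 15 in the CD45 sort, and none was called lower. In fits of node libraries alone, only 6 of the ligands in CD4+ cells, 4 in CD8+ cells and 9 in the CD45 sort had enough counts to be tested. The others entered through their tumor libraries, so for them a higher level in TILs was nearly fixed in advance. The largest log2 fold changes were 9.87 and 10.97 for Ccl7 in CD4+ and CD8+ cells and 9.62 for Ccl12 in the CD45 sort, both of them ligands of Ccr2. They are fitted values, and no lower bound over the floor was computed for ligands. The part of myeloid RNA in the ligand rises of the T cell sorts was not tested. Of the other receptors, 4 were higher and 1, the lymph node homing receptor Ccr7, was lower in CD4+ cells of 12 tested, 3 were higher and 2 lower in CD8+ cells of 9, and 6 were higher and 5 lower in the CD45 sort of 12. The scavenger receptor Ackr3 led in CD4+ cells (6.27) and in CD8+ cells (4.35), and the neutrophil receptor Cxcr1 in the CD45 sort (6.26). Of the 20 signaling genes, 4 were higher and 4 lower in CD4+ cells, 4 and 6 in CD8+ cells and 7 and 2 in the CD45 sort, with the G protein regulator Rgs18 furthest apart in both T cell sorts (3.91 and 5.80). The shares of all genes called in these 3 comparisons were 33.9%, 32.1% and 43.5%.

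Between genotypes in CD4 TILs, 1 of 11 other receptors rose, the atypical receptor Ccrl2 (1.75, edgeR adjusted p = 0.0102), and among 14 ligands the Ccr8 ligand Ccl1 rose and the Cxcr4 ligand Cxcl12 fell (−3.90, 0.0181). In signaling 1 of 20 rose, Rgs16 (1.74, 0.0399). Of all genes, 8.02% were called there, and 12.2% in CD8 TILs. In CD8 TILs 4 of 15 ligands rose, Ccl8 and the Ccr2 ligands Ccl2, Ccl7 and Ccl12, and Cxcl12 fell (−6.71, 0.0185). Ackr3 fell there (−5.26, 0.0185), the 1 called of 9 other receptors, and 5 of 20 signaling genes rose, led by Pik3cg (1.72, 0.0185), the phosphoinositide kinase of chemokine signaling. Fibroblast and pericyte markers were also lower in Yap-cKO TILs (22.8 against 317 CPM in CD4 and 7.90 against 255 CPM in CD8), as were endothelial markers (96.4 against 218 CPM and 70.0 against 431 CPM), all without overlap, and their part in the Cxcl12 and Ackr3 differences was not tested. None of these lists had a call in CD45 TILs or in any TDLN sort by edgeR, where between 0 and 6 of their genes were at an unadjusted p under 0.05. Ccrl2 was called in the interaction of genotype with tissue in CD4+ cells (2.13, 0.0314) and Cxcl12 in CD8+ cells (−8.31, 0.0440).

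Over the 12 group means, the genes with the pattern most like each receptor (Pearson r of log2(CPM + 0.5), leaving out predicted genes and the other 8 receptors) were Slc11a1 for Ccr1 (0.993), Dhrs3 for Ccr2 (0.993), Socs2 for Ccr3 (0.981), Tmprss3 for Ccr4 (0.985) and Bmp7 for Ccr8 (0.990). They were Ctla2a for Cxcr3 (0.951), Bsdc1 for Cxcr4 (0.990), the B cell coreceptor Cd22 for Cxcr5 (0.983) and the chemokine Ccl9 for Cx3cr1 (0.987). All group means share libraries of the same 6 sorts and tissues, so these values describe the pattern over 12 points only. Among the 9 receptors the highest values were 0.979 for Ccr1 with Cx3cr1, 0.962 for Ccr1 with Ccr2, 0.946 for Ccr2 with Cx3cr1 and 0.936 for Ccr4 with Ccr8.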

How the data were processed

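RNA from 48 sorted populations was amplified with SMART-Seq v4 and sequenced as paired reads. According to the submitters' processing notes, FastQC and Trimmomatic were used, and the authors quantified transcripts with Salmon 0.9.1 against mm10 (GRCm38). The deposited files hold, per transcript and library, the expected counts and TPM that the authors obtained with Salmon. Of 112092 transcripts, 111787 were matched to GENCODE M21 genes, and the unmatched share was 0.0488% to 0.18% of the counts.

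The expected counts were added up by gene and then rounded, which leaves isoform shares to Salmon. A gene entered a fit with 10 or more counts in 4 or more of its libraries and was tested with edgeR 4.0.16 (R 4.3.3, TMM scaling, quasi-likelihood F test) and p-values were adjusted over all genes tested by the Benjamini-Hochberg method. CPM levels use 1 TMM scaling over all 48 libraries, whereas log2 fold changes use the scaling of their own fit. TPM values were summed per gene and used for comparisons between genes. A floor of 3 counts stood for libraries at 0, and it covers counting error only. The self-test on simulated counts covered the genotype fit in CD4 TILs and the tissue fit in CD4+ cells. It was passed on planted log2 fold changes of 4 at the lower of the dispersions simulated. No pass mark was set for smaller changes or a wider spread. None of 72 pairs of libraries within a group agreed within sampling noise.

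All 9 receptors were followed in every comparison, but values are left out for some that were not called. Of the other receptors, ligands and signaling genes, mainly the one called with the largest absolute fold change was named. Where few were called, all were named. The receptors, lists and tests were chosen with earlier results of these data known. Alternatives were DESeq2 1.42.0, no count filter, transcript length offsets, blocking on the replicate number, calls by adjusted p without a fold threshold, scaling on 15 T cell markers, a Y-linked covariate, 1 genotype only, and leaving out each library. Same-numbered libraries deviated together in every pair (8 pairs, lowest correlation 0.113, mean 0.437) only between CD4 and CD8 TILs. The blocked fit there called 4 receptors, as did the fit without it.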

Additional observations from a re-analysis of the deposited data

Results flagged for a closer look

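The genotype effect on Ccr8 differed between the tissues in CD4+ cells, by 2.97 on the log2 scale (edgeR adjusted p = 0.0129). Within the tissues the difference was called in TILs (1.73, adjusted p = 0.0238) and not in TDLNs (−1.25, 0.816).

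In 14 of 104 groups of 4 libraries tested, 1 library lay apart from the other 3 (Dixon's ratio above its 95% limit), where chance gives about 1 in 20. In TILs these were Ccr1 in WT CD8 TILs replicate 2 (3.20 CPM, others 7.91 to 8.81), Ccr2 in Yap-cKO CD4 TILs replicate 3 (40.2 CPM, others 252 to 284), Ccr4 in WT CD4 TILs replicate 1 (8.14 CPM, others 30.2 to 34.3) and Ccr4 in Yap-cKO CD4 TILs replicate 1 (139 CPM, others 44.4 to 60.6). Ccr8 stood out in Yap-cKO CD8 TILs replicate 2 (74.1 CPM, others 5.43 to 17.1) and in Yap-cKO CD45 TILs replicate 1 (1.71 CPM, others 2.13 to 2.17), and Ccr4 in that same CD45 library (1.01 CPM, others 0.052 to 0.192).

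In TDLNs, WT CD45 replicate 4 stood out for 3 receptors, Ccr1 (41.7 CPM, others 3.64 to 5.12), Cx3cr1 (22.0 CPM, others 4.26 to 5.03) and Cxcr3 (9.27 CPM, others 5.32 to 5.86). It is also the library with the highest monocyte and macrophage marker sum of its group. The rest were Ccr2 in WT CD4 TDLNs replicate 4 (30.8 CPM, others 10.4 to 13.6) and Yap-cKO CD4 TDLNs replicate 2 (36.6 CPM, others 8.11 to 11.7), Ccr4 in WT CD45 TDLNs replicate 3 (2.24 CPM, others 0.277 to 0.448) and Cxcr3 in Yap-cKO CD4 TDLNs replicate 1 (31.6 CPM, others 4.96 to 9.16).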

How the results depend on the processing

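Of 147 tests of a receptor, 52 were called, and in 2952 alternative fits 2857 stayed on the same side of the threshold, 58 lost the call, 37 gained it and in 0 a called difference changed sign. Sign changes of differences called in neither fit were not counted. Receptors called between genotypes in CD4 TILs numbered 1 in the edgeR fit, 5 with DESeq2, 4 with no count filter, 0 scaled on T cell markers, 0 with the Y-linked covariate and 0 to 5 leaving out 1 library. In CD8 TILs 2 became 4 with DESeq2, 0 with the replicate block (Ccr2 2.09, adjusted p = 0.0960, and Ccr4 2.33, 0.132), 0 scaled on T cell markers, 0 with the Y-linked covariate and 0 to 4 leaving out 1 library. For genotype by tissue in CD8+ cells 0 became 2 with DESeq2, 1 with no count filter and 0 to 1 leaving out 1 library. CD4 against CD8 gave 1 in TILs in WT libraries alone (4 in all) and 2 in TDLNs in Yap-cKO libraries alone (5 in all). Leaving out 1 library gave 7 to 8 receptors for CD4, 6 to 8 for CD8 and 7 to 9 for CD45 cells between tissues, 3 to 5 in TILs and 5 to 6 in TDLNs between lineages, and 7 to 8 in TILs and 7 to 9 in TDLNs for CD45 against T cells. Over all genes, 1139 calls in CD4 TILs became 2128 with DESeq2, 1723 with no count filter, 3633 scaled on T cell markers and 2 with the Y-linked covariate, and 1719 in CD8 TILs became 5757, and 1 with the covariate or with the block. The labels do not say for any comparison what same-numbered libraries share, so the block may or may not pair related libraries. Between CD4 and CD8 TDLNs the mean correlation of such pairs was 0.486, with a lowest of −0.0802. The main fits use no pairing. The cause of these changes in calls was not tested. Counts under 3 per library, as for Ccr3 in CD8 TDLNs, allow bounds only.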
